A study of Homo sapiens with 24 samples.

Results

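A549 and H1975 are human lung adenocarcinoma cell lines, and both were exposed for 6 h to Pirfenidone, an oral drug for idiopathic pulmonary fibrosis, to ask how tumor cells respond to it. The values below describe where the early response of the lines differed, as the change in H1975 minus the change in A549, and what both lines had in common. Of the 24 arrays of the series, the 12 taken at 6 h were used, with 3 in each of 4 groups: A549 with PBS, A549 with 0.75 mg/ml Pirfenidone, H1975 with PBS, and H1975 with 0.75 mg/ml Pirfenidone. PBS was the solvent of the drug. RNA was hybridised to one-color Agilent arrays, and the probe is the unit of all counts. Every Pirfenidone array was set against the PBS array of the same line, run day and slide, which gave 3 pairs per line. A549 was run on days 1, 2 and 3 and H1975 on days 1, 3 and 4, as the deposited files name them. The labels do not say whether the samples of a group came from separate cultures, so the errors cover the spread between these arrays, which may be technical.

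Cells that run short of amino acids or accumulate misfolded protein in the endoplasmic reticulum (ER) slow translation and raise the transcription factor ATF4, which switches on genes for amino acid supply and for stress control, a program called the integrated stress response. A second ER program, the unfolded protein response, raises chaperones and parts of the secretory machinery. Signals such as low oxygen, interferon or growth factors each act on gene groups of their own, and how much a line uses each of these programs can depend on its mutations and on the level from which a gene starts.

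Levels are log2 values, set so that the 75th percentile of each array is 0, and a change or a difference of 1 is 2-fold. On this scale fewer cells and less RNA per cell cannot be told apart. Between 62.9% and 68.5% of probes were well above background on the 12 arrays, and none was saturated. All 5 epithelial markers were detected on every array of both lines. Of the 3 lineage markers, NKX2-1 was above background on all H1975 arrays and on no A549 array. SFTPB was so on 4 of 6 H1975 arrays and on no A549 array, and NAPSA on all arrays of both lines. Of 3 genes whose locus A549 is known to lack, CDKN2B was dark in A549 whereas CDKN2A and MTAP were not. Each slide held Pirfenidone at 6 h in place 1 and PBS at 6 h in place 2, in both lines, so drug and place cannot be told apart within a line.

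The response of the lines differed at 52 of 23299 probes tested, or 0.223%, at a limma adjusted p of 0.05 or less and a difference of at least 2-fold. The change was more positive in H1975 at 38 probes (0.163%) and more negative at 14 (0.0601%), and the 52 probes stood for 44 named genes and 3 transcripts without a symbol. Adjusted p-values lay between 0.0262 and 0.0476 and standard errors between 0.08 and 0.29. H1975 held most of the changes: 29 of the 52 probes passed the same test in H1975 alone and not in A549, 3 passed in A549 and not in H1975, and 20 passed in neither. In A549, 35 of the 52 had a change under 0.5 in size. At all 52 probes the 3 runs of one line lay on one side of the 3 runs of the other, as did 23.8% of all probes tested, a count that the choice of these probes by size and precision largely fixes. The calls rest on the pairing, on the filter on dim probes and on the background correction. Without the pairing limma called 0 probes (3633 had an unadjusted p under 0.05 in the paired fit). Without the filter it called 0, with adjusted p-values of 0.0964 to 0.154 for the 29 probes named under the line difference. Leaving out any 1 of the 6 pairs gave 0 or 1 calls, and none of the 52 probes was called in those fits. A model-based (normexp) background correction gave 0 calls, or 36 (32 more positive and 4 more negative) once the spread could follow the intensity, of which 13 were among the 52, and 5 of the 52 differences then changed sign. Other scalings moved the split between directions, to 42 more positive and 27 more negative with quantile normalization and to 27 and 16 with the values the authors deposited.

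**Figure D1:**
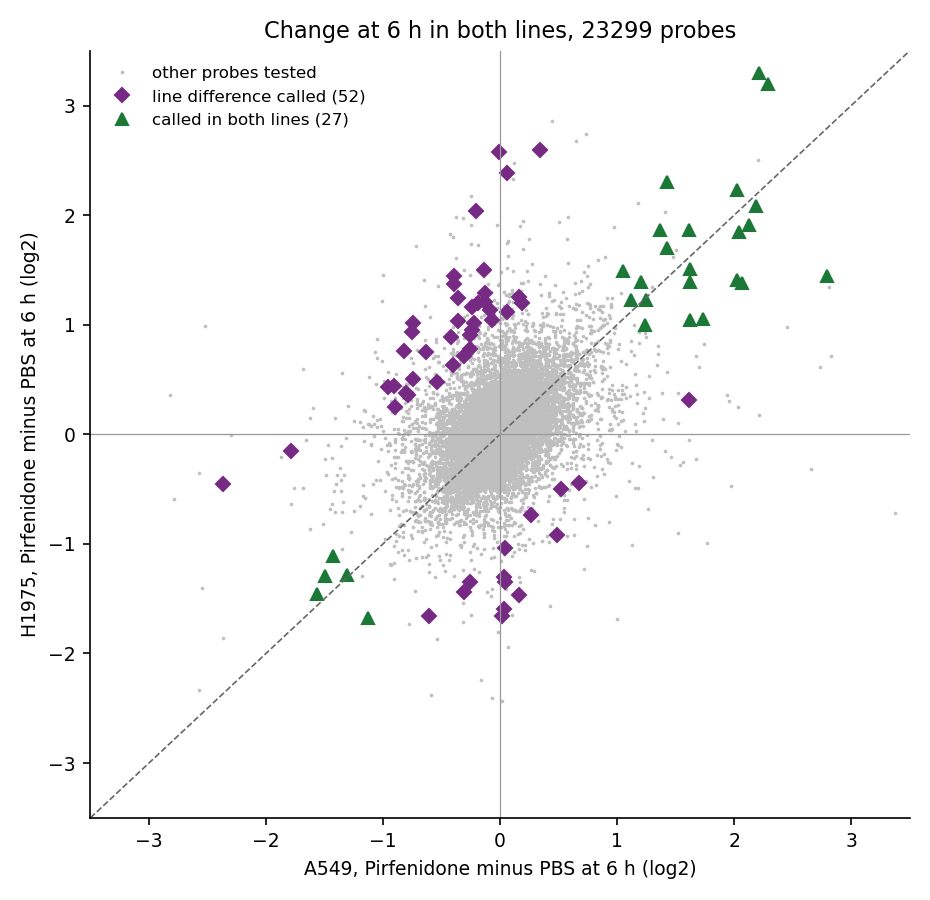
Change at 6 h (Pirfenidone minus PBS, log2) of 23299 probes in A549 (x axis) and H1975 (y axis), with the 52 probes of the line difference as diamonds and the 27 probes called in both lines as triangles; the dashed line marks equal changes. Most diamonds lie near 0 on the A549 axis, and the triangles lie along the dashed line.

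The largest difference was at SCARA5, a scavenger receptor that takes up ferritin. Its log2 level in A549 was -1.59, -0.38 and -1.30 with PBS and -1.36, -0.29 and -1.66 with Pirfenidone, in the order of the run days. In H1975 it was -6.51, -5.96 and -6.18 with PBS and -3.54, -3.74 and -3.62 with Pirfenidone. SCARA5 was thus far higher in A549 throughout, and only in H1975 did the groups lie apart. It rose 5.99-fold in H1975 (log2 change 2.58 ± 0.17, SE, n = 3 runs) against a log2 change of -0.01 ± 0.17 in A549, a difference of 2.60 ± 0.24 (limma adjusted p = 0.034).

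CYRIA, which encodes a RAC1-binding protein that restrains actin branching, rose in H1975 by a log2 change of 2.04 ± 0.16, with -0.21 ± 0.16 in A549. Its H1975 levels were -4.75, -6.86 and -7.03 with PBS and -2.45, -5.03 and -5.02 with Pirfenidone, so that day 1 lay above the other days in both groups and the groups separated only within a day. In A549 CYRIA was near the detection limit, with 3 of 6 arrays well above background. FA2H, the hydroxylase that makes 2-hydroxylated sphingolipids, rose in H1975 by 1.5 ± 0.10 from levels of -5.07, -5.89 and -5.66, whereas in A549, at levels of 3.96, 3.19 and 3.23, its log2 change was -0.14 ± 0.10. CREG2, a secreted glycoprotein, and SH3GL3, an endophilin of the endocytic machinery, had differences of 1.76 ± 0.18 and 1.83 ± 0.18. SH3GL3 was well above background on only 1 of the 6 H1975 arrays, so its change there is uncertain. The non-coding transcript FAM87A rose in H1975 by a log2 change of 2.38 ± 0.21 and was above background on no A549 array, so that it had no measured change in that line.

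SLC2A3 encodes the glucose transporter GLUT3, and its brighter probe (chr12:8072924-8072983, hg19) stood in H1975 at -4.43, -3.57 and -3.66 with PBS and at -3.32, -2.69 and -2.58 with Pirfenidone. In A549 the same probe stood at -2.87, -2.56 and -2.39 with PBS and at -3.17, -2.95 and -2.78 with Pirfenidone. It was higher with the drug in all 3 H1975 runs and lower in all 3 A549 runs, with no overlap between the changes. SLC2A3 rose in H1975 by 1.03 ± 0.06, with -0.36 ± 0.06 in A549, and the second SLC2A3 probe gave a difference of 1.60 ± 0.11 beside 1.39 ± 0.09 for the first (limma adjusted p = 0.0262 for both). A probe of the near-identical SLC2A14 had a difference of 1.31 ± 0.08, and these probes may share transcripts. ANKRD37, an ankyrin-repeat gene induced by low oxygen, rose in H1975 by 1.25 ± 0.08 against 0.16 ± 0.08 in A549. Of the 21 hypoxia-inducible factor and glycolysis genes, 2 passed the test of the line difference, both of these higher in H1975. Over all probes tested, 0.163% passed in that direction. The median difference of the list was 0.29 against 0.05 over all probes tested. No gene of the list was called in A549, where 0.279% of all probes were called higher and 0.18% lower.

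ID2 encodes an inhibitor of helix-loop-helix transcription factors and is a target of BMP and TGFβ signals. Its brighter probe stood in H1975 at 0.54, 1.1 and 1.09 with PBS and at 1.82, 2.0 and 2.03 with Pirfenidone, and in A549 at 3.50, 4.03 and 4.0 with PBS and at 3.51, 3.82 and 3.98 with Pirfenidone. H1975 groups did not overlap and A549 groups did. The difference was 1.11 ± 0.13 and, for the second probe, 1.06 ± 0.12. ID2 was the only one of 25 TGFβ pathway and response genes to pass the test of the difference, which 0.223% of all probes passed. The median difference of that list was 0.07. CXCL3, a neutrophil-attracting chemokine, rose in H1975 by 1.20 ± 0.09 (2.3-fold) from levels of -4.91, -4.90 and -5.13, against -0.19 ± 0.09 in A549. It was the only one of 22 tested cytokine and NF-κB genes with a called difference, beside the same 0.223% of all probes. Its neighbor CXCL2 had a difference of 1.29 with an adjusted p of 0.105.

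In a smaller set the change lay in A549. DGAT2 catalyses the last step of triglyceride synthesis, and its probe (chr11:75511843-75511902, hg19) fell in A549 from -3.39, -3.80 and -3.23 with PBS to -6.30, -5.79 and -5.45 with Pirfenidone. In H1975 it went from -2.68, -1.97 and -2.05 to -3.25, -2.34 and -2.47. The A549 groups lay apart, and the H1975 levels were slightly lower with the drug in all 3 runs with overlapping groups. The log2 change was -2.37 ± 0.17 in A549 and -0.45 ± 0.17 in H1975, a difference of 1.92 ± 0.24 (limma adjusted p = 0.0476), which was 1.24 with normexp. ZC3HAV1, an antiviral protein that binds CG-rich RNA, fell in A549 by a log2 change of -1.79 ± 0.13, with -0.15 ± 0.13 in H1975. A second, dimmer ZC3HAV1 probe had a difference of 0.50 with an adjusted p of 0.0872, so the probes of this gene disagreed in size.

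SEC24D, a cargo-binding subunit of the vesicles that leave the ER, was the one of the 52 called higher in A549 and not in H1975. Its levels there were -1.43, -1.14 and -0.94 with PBS and 0.29, 0.61 and 0.43 with Pirfenidone. In H1975 they were -0.14, 0.44 and 0.40 with PBS and 0.19, 0.67 and 0.76 with Pirfenidone. A549 groups lay well apart and H1975 groups overlapped. The change was 3.06-fold in A549 (1.61 ± 0.09 on the log2 scale) and 0.31 ± 0.09 in H1975, a difference of -1.31 ± 0.12. HSPA1B, an inducible HSP70 chaperone, had a log2 change of -0.90 ± 0.09 in A549 and 0.25 ± 0.09 in H1975, neither past the 2-fold limit, and a called difference of 1.15 ± 0.12. The probe of its near-identical copy HSPA1A differed by 1.18 with an adjusted p of 0.0515, and the probes of both genes may bind either transcript. Among 14 cytosolic heat shock genes, 12 differences were positive, against 14146 of all 23299 probes. The median was 0.23 beside 0.05 over all probes, or 0.05 with normexp, where the median over all probes was 0.25.

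At 13 of the 52 probes the changes of the lines had opposite signs with an adjusted p of 0.05 or less in each, against 20 of all 23299 probes tested. The 52 were chosen for a large difference, which opposite changes produce, so these counts are a description. Both probes of C11orf86 were among the 13, at -0.74 ± 0.09 in A549 and 1.02 ± 0.09 in H1975 for the first and -0.75 ± 0.12 and 0.93 ± 0.12 for the second. HOXA3, a homeobox transcription factor, had a change of -0.82 ± 0.07 in A549, from levels of 0.11, 0.50 and 0.31, and of 0.76 ± 0.07 in H1975, from levels of -5.72, -5.78 and -5.74. Also in this set were both probes of the secreted kinase PKDCC, the planar polarity gene PRICKLE2 and the hair follicle protein TCHH. The signaling adaptor LAT2 was in it by its dimmer probe. Its brighter probe had 0.15 in A549 and -0.15 in H1975, a difference of -0.29 (limma adjusted p = 0.604). LINC02591, a non-coding transcript, was one of the 2 in this set with a positive value in A549 and a negative one in H1975 (0.67 ± 0.07 and -0.44 ± 0.07). Its A549 levels with PBS were on no array well above background, which makes the A549 level at least 1.2-fold higher with the drug (limma adjusted p = 0.0142).

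**Figure D2:**
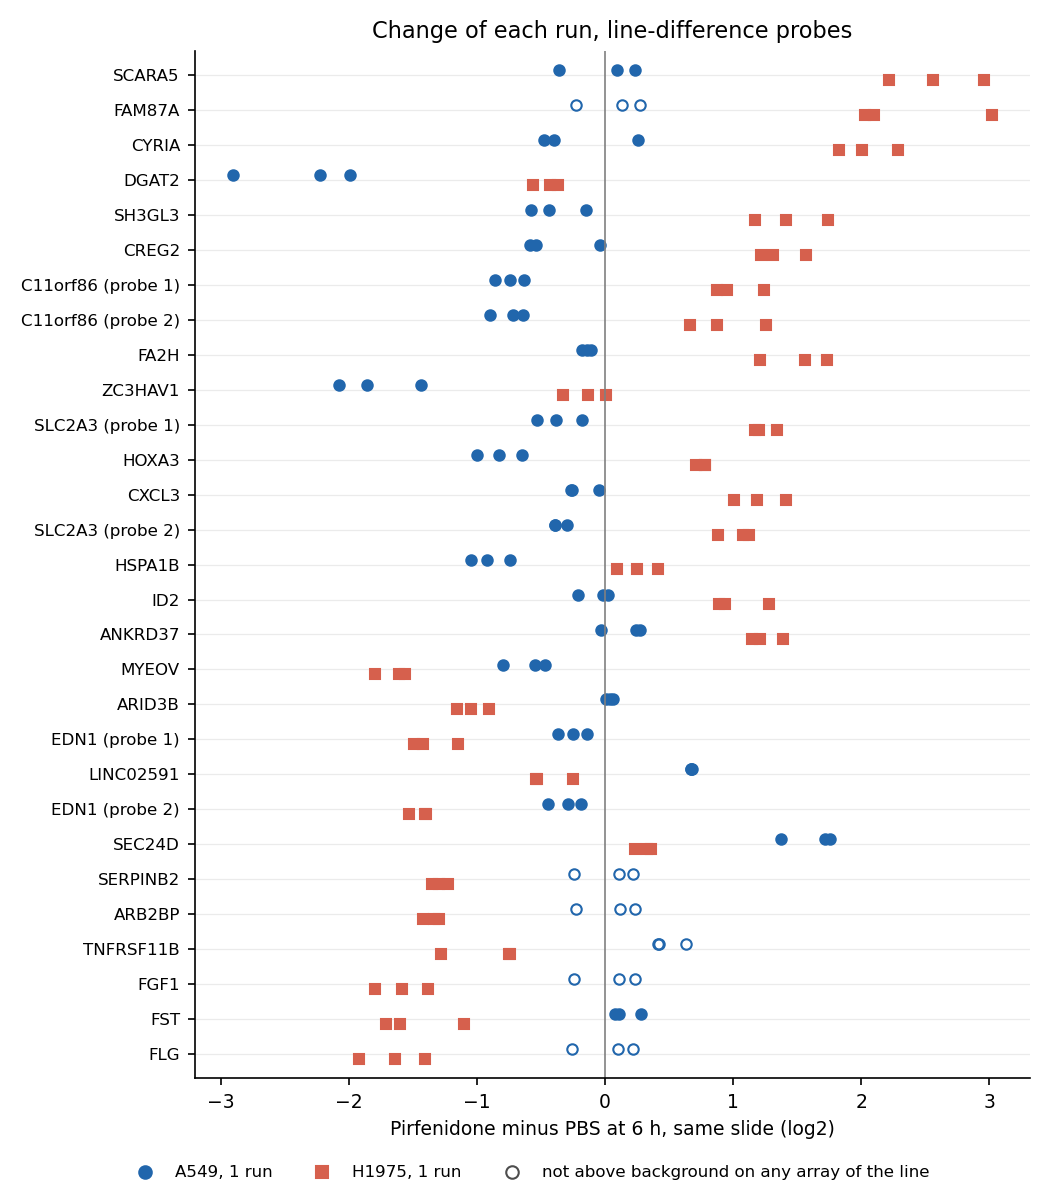
Change of each run (Pirfenidone minus PBS of the same slide, log2) for the 29 probes named under the line difference, with circles for A549 and squares for H1975 and open circles where no A549 array was well above background. The 3 runs of one line lie apart from the 3 of the other for every probe, and SCARA5 at the top and FLG at the bottom mark the ends of the range.

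Among the probes with a more negative change in H1975 were both of EDN1. Endothelin 1, which it encodes, is a peptide that constricts vessels and drives growth. Its brighter probe (chr6:12296672-12296731, hg19) fell in H1975 from -0.16, 0.32 and 0.57 with PBS to -1.69, -1.07 and -0.84 with Pirfenidone, and in A549 it stood at 3.14, 2.92 and 2.77 with PBS and at 2.69, 2.74 and 2.48 with Pirfenidone. The groups did not overlap in either line, but the step was larger in H1975, at -1.44 ± 0.07 against -0.31 ± 0.07. The differences of the 2 EDN1 probes were -1.14 ± 0.10 and -1.10 ± 0.12 (limma adjusted p = 0.0332 and 0.0384).

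FST encodes follistatin, which binds and blocks activin. In H1975 it stood at -6.43, -5.89 and -5.87 with PBS and was well above background on no array with Pirfenidone, where the values were -7.53, -7.60 and -7.47. FST was therefore at least 2.34-fold lower in H1975 with the drug (limma adjusted p = 0.00446). In A549, where FST was far brighter, its log2 change was 0.16 ± 0.12. The difference of the measured values was -1.62 ± 0.17. FGF1, a fibroblast growth factor, fell in H1975 by -1.59 ± 0.11 at this probe, but both other FGF1 probes were brighter and gave differences of -0.29 (adjusted p = 0.402) and 0.26 (adjusted p = 0.518), and the mean of the gene's probes gave -0.55 (adjusted p = 0.0822). FLG, which encodes the skin barrier protein filaggrin, fell by -1.66 ± 0.13 in H1975, while its other probe had a difference of -0.41 (adjusted p = 0.553).

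SERPINB2, an inhibitor of plasminogen activators, fell in H1975 by -1.30 ± 0.09, from levels of -2.45, -1.95 and -1.94. The pseudogene transcript ARB2BP fell by -1.35 ± 0.09, and TNFRSF11B, the decoy receptor osteoprotegerin, had a change of -0.92 ± 0.12. At the called probes of FGF1, FLG, SERPINB2, ARB2BP and TNFRSF11B no A549 array was well above background. For FGF1, FLG, SERPINB2 and ARB2BP, with 0.02 to 0.04 in A549, the difference is in effect the change of H1975. The difference of TNFRSF11B, -1.41, also holds a change of 0.49 in A549 that was not measured above background. Its change in H1975 alone missed the 2-fold limit. With normexp the difference of ARB2BP, TNFRSF11B, FGF1, FST and LINC02591 turned positive, at 0.78, 0.72, 0.24, 0.57 and 0.05, so the direction of these dim probes depends on the background correction. In the same setting FLG went from -1.68 to -0.19, SERPINB2 from -1.32 to -0.65 and the dimmer EDN1 probe from -1.10 to -0.39. In all, 8 of the 52 probes were dark on every A549 array, 1 was dark on every H1975 array, and 35 were well above background on all 12. MYEOV, an oncogene candidate first found in myeloma, was measured well in both lines and fell by -1.66 ± 0.08 in H1975 against -0.61 ± 0.08 in A549. ARID3B, a DNA-binding protein of the ARID family, fell by -1.04 ± 0.06 in H1975 with 0.04 ± 0.06 in A549.

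**Figure D3:**
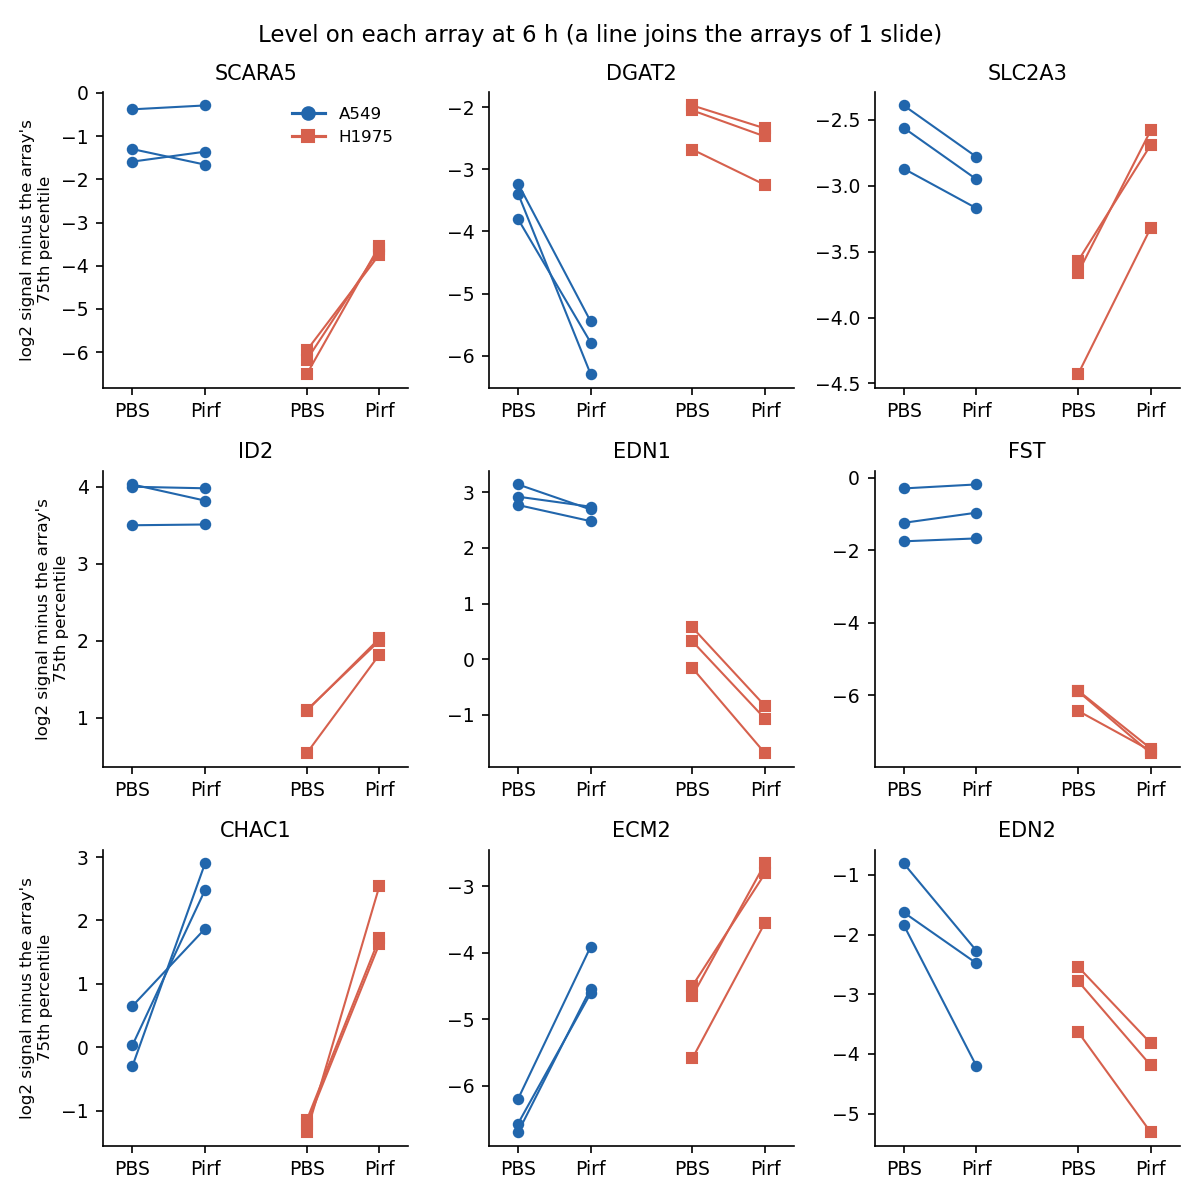
Log2 level on each of the 12 arrays for 6 genes of the line difference (top and middle rows) and 3 genes called in both lines (bottom row), with circles for A549, squares for H1975 and a line joining the PBS and Pirfenidone arrays of 1 slide; each panel has its own y axis. SCARA5 and ID2 climb in H1975 and overlap in A549, DGAT2 drops further in A549, and CHAC1 and ECM2 climb in both lines.

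The starting level often differed too. Of the 38 probes with a more positive change in H1975, 26 had a lower PBS level in H1975 than in A549, and of the 14 with a more negative change, 9 had a higher PBS level in H1975. Over all probes tested, 47.3% had the lower PBS level in H1975. The PBS arrays enter both the starting level and the change, so these counts are a description.

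A total of 27 probes (0.116%) were called in the same direction in both lines, 22 of them higher and 5 lower with Pirfenidone, for 22 named genes. Called alone, A549 had 65 probes higher (0.279%) and 42 lower (0.18%), and H1975 had 184 higher (0.79%) and 66 lower (0.283%), the latter split being 152 and 89 with quantile normalization. Without the A549 pair of day 1, A549 had 9 calls in all and the lines shared 2, and without the H1975 pair of day 4, H1975 had 107 calls and the lines shared 6. The shared probes made up 33.8% of those higher in A549 and 12% of those higher in H1975, and 11.9% and 7.58% of those lower. No probe was called in opposite directions. Of the probes called in A549, 92 of 107 (86%) had the same sign in H1975, and of those called in H1975, 192 of 250 (76.8%) had the same sign in A549. The share of all probes with the same sign in both lines was not computed. A call in one line alone is not a difference between lines: of 223 probes called in H1975 and not in A549, 29 passed the test of the difference, and of 80 called in A549 and not in H1975, 3 did. Over all probes the changes of the lines correlated at r = 0.43, and at r = 0.58 over the 19272 probes well above background on all 12 arrays, a description across probes that are not independent.

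The shared genes were led by stress-response genes. CHAC1, which breaks down glutathione and is switched on by ATF4, stood at its brighter probe in A549 at -0.30, 0.65 and 0.03 with PBS and at 2.90, 1.87 and 2.48 with Pirfenidone. In H1975 it stood at -1.34, -1.15 and -1.21 with PBS and at 2.54, 1.72 and 1.63 with Pirfenidone. The groups lay apart in both lines. CHAC1 rose by 2.29 ± 0.39 in A549 and 3.20 ± 0.39 in H1975, and the 95% interval of the difference ran from -0.42 to 2.24, so a larger rise in H1975 is within it. The second CHAC1 probe had an interval from 0.06 to 2.13. DDIT3, the stress transcription factor CHOP, rose 4.57-fold and 4.24-fold, with an interval of the difference from -1.46 to 1.24. ADM2, the peptide adrenomedullin 2, rose by 2.02 ± 0.17 and 2.23 ± 0.17 at its brighter probe, but a dimmer ADM2 probe had 0.07 and 0.42 and passed in neither line.

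ECM2, an extracellular matrix protein, was close in both lines. Its levels were -6.57, -6.70 and -6.20 with PBS and -4.61, -4.54 and -3.91 with Pirfenidone in A549, and -5.59, -4.50 and -4.65 with PBS and -3.55, -2.81 and -2.66 with Pirfenidone in H1975. ECM2 was higher with the drug by about the same step in all 6 runs. Its change was 2.13 ± 0.10 in A549 and 1.91 ± 0.10 in H1975, with an interval of the difference from -0.56 to 0.10. HERPUD1, which helps clear misfolded protein from the ER, rose by 2.02 ± 0.12 in A549 and 1.41 ± 0.12 in H1975, a difference of -0.60 with an adjusted p of 0.184. ULBP1, a ligand that marks stressed cells for natural killer cells, SESN2 and DDIT4, which both restrain the growth kinase mTOR, CCNG2, an unusual cyclin linked to arrest, and the cadherin CDH15 also rose in both lines. C2orf66 rose 6.92-fold in A549 by its fitted values but was above background there only with Pirfenidone, which bounds the rise at 1.72-fold or more, and on 1 of 6 H1975 arrays. For 9 of the 27 shared probes the 95% interval of the difference lay within -1 and 1, and none had a called difference. For the other probes the intervals leave room for a 2-fold difference. LOC284561, a non-coding transcript, was well above background on no H1975 array, so its call there does not rest on a measured level.

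The shared decreases were few, and none of the 5 calls was left without the filter on dim probes or in 5 of the 6 fits that left out 1 pair (6 shared decreases without the A549 pair of day 2). EDN2, which encodes endothelin 2, fell by -1.56 ± 0.26 in A549 and by -1.46 ± 0.26 in H1975, whereas EDN1 of the same family differed between the lines. CSF2, the growth factor GM-CSF, fell by -1.68 ± 0.21 in H1975. In A549 CSF2 was well above background on 2 of 3 PBS arrays and on no Pirfenidone array, so it was at least 1.27-fold lower with the drug (limma adjusted p = 0.0453). Both probes of the RNA-binding protein gene RBM12 fell in both lines, with changes between -1.50 and -1.11. Averaged over both lines, 111 probes (0.476%) passed, 80 higher and 31 lower.

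The core sequence TGATGNAAN, to which ATF4 binds with a C/EBP partner, was searched on both strands in RefSeq promoters (GRCh38.p14), each from 250 bases before to 50 bases after a start. Of the 19 shared genes that rose, 14 had a promoter in that table, and 4 of them (28.6%) held the core, against 4.45% of 27305 genes. It was found for 1 of 19 genes with a more positive change in H1975 (5.26%) (HOXA3) and for 0 of 7 with a more negative change. The 3 matches that lie before the start of a shared gene are printed with 40 bases on each side to show their setting, with the core in capitals. All 3 read as the reverse complement, at 210 bases before the start of CHAC1 (chr15:40953221-40953309, plus strand), 177 before that of HERPUD1 (chr16:56931925-56932013, plus strand) and 152 before that of KLHDC7B (chr22:50545707-50545795, plus strand).
CHAC1: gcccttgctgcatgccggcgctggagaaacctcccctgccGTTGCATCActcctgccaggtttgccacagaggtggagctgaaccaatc
HERPUD1: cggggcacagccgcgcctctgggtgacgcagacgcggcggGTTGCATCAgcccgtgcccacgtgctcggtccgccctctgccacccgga
KLHDC7B: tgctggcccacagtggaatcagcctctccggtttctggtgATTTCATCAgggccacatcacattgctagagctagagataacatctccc
CHAC1 and HERPUD1 hold the same 9 bases. The NRF2 core TGACNNNGC was in 0 of 19 promoters of genes with a more positive change in H1975 and in 16.1% of all genes, and the aryl hydrocarbon receptor core GCGTG in 8 of 19 (42.1%) and in 40.6% of all genes.

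Of 21 tested integrated stress response factors and ATF4 targets, 8 rose in A549 and 12 in H1975, 7 of them in both, and none had a called difference. Over all probes, 0.279% were called higher in A549, 0.79% in H1975, and 0.116% in the same direction in both lines. These shares also stand beside the counts of the lists below. The median change of the stress response list was 0.85 in A549 and 1.15 in H1975. The widest gaps in this group were at GDF15, a stress cytokine, with 1.78 in H1975 against 0.25 in A549 (difference 1.54, adjusted p = 0.068), and at the cysteine-making enzyme CTH with 1.40 against 0.24 (adjusted p = 0.0719). On the other side stood the glycoprotein hormone STC2, which rose in A549 by 1.22 and had 0.19 in H1975 (difference -1.03, adjusted p = 0.17). Among 19 ER chaperone and unfolded protein response genes, 3 rose in A549 (HERPUD1, DNAJB9 and MANF) and 1 in H1975 (HERPUD1). The difference was positive for 2 of these 19, against 14146 of all 23299 probes, with a median of -0.30, and DNAJB9, an ER co-chaperone, had 2.45 in A549 and 0.98 in H1975 (adjusted p of the difference 0.251).

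Genes of serine, one-carbon and proline synthesis had medians of 0.33 in A549 and 0.20 in H1975, with GPT2 and ALDH1L2 called in A549 and PHGDH in H1975. Of 10 amino acid transporters, SLC1A4 rose in both lines and SLC7A11, the cystine importer, rose in H1975 by 1.56 with 0.58 in A549 (difference 0.98, adjusted p = 0.189). None of the 20 cytosolic aminoacyl-tRNA synthetases was called in any comparison, with medians of 0.17 and 0.14. The 23 tested interferon-stimulated genes had a median of 0.00 in A549 and 0.27 in H1975, and 20 of 23 differences were positive, beside the same 14146 of 23299. IFIT2 and OASL rose in H1975. The brighter IFIT2 probe differed by 0.69 (adjusted p = 0.0652), and a dimmer one by 1.42 ± 0.14 (adjusted p = 0.0353). Medians are descriptions beside 0.05 for all probes, and none of these lists was tested as a set. Over all probes 0.223% had a called difference, so 0 called differences in a list of this size is near that share.

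**Figure D4:**
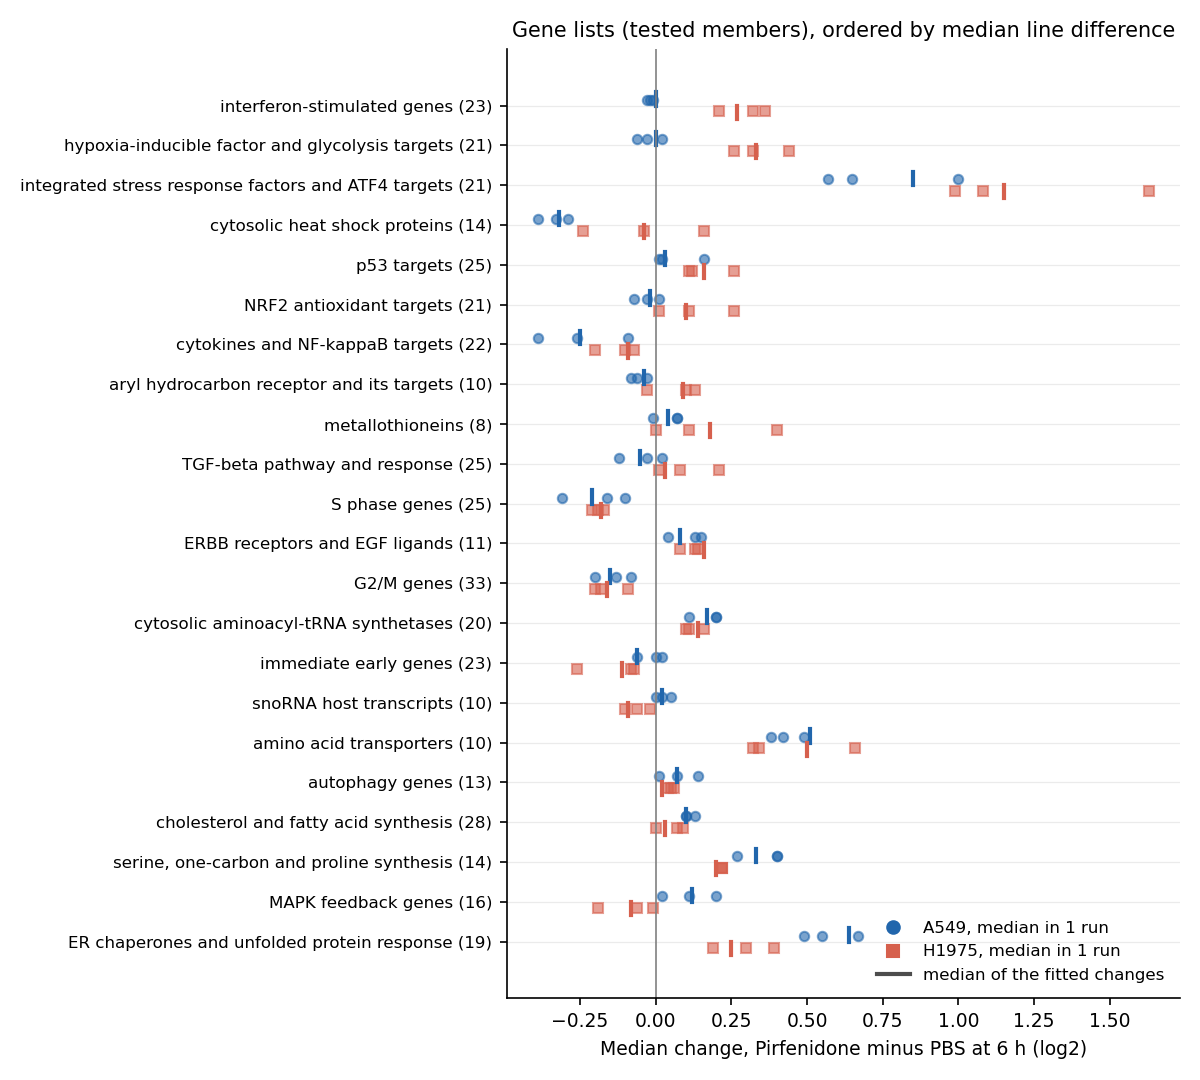
Median change over the tested members of 22 gene lists (log2, Pirfenidone minus PBS at 6 h), with the number of tested members in brackets, points for the 3 runs of A549 (circles) and of H1975 (squares), and a bar at the median of the fitted changes. The stress response list lies highest in both lines, at 0.85 and 1.15, the ER list lies higher in A549, and the interferon and hypoxia lists lie higher in H1975.

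In the p53 target list, BBC3, which promotes apoptosis, and GDF15 rose in H1975 and ZMAT3 fell in A549 by -1.02. ZMAT3 had a difference of 0.89 with an adjusted p of 0.0353 but missed the 2-fold limit, and AEN, an apoptosis nuclease, had -0.95 with an adjusted p of 0.0532. MAPK feedback genes had a median of 0.12 in A549 and -0.08 in H1975, and 3 of 16 differences were positive. The median difference was -0.23 beside 0.05 over all probes, or -0.03 with normexp, where the median over all probes was 0.25. FOSL1 fell in H1975 by -1.13, with -0.72 in A549. Immediate early genes were mixed: CCN2 fell in H1975 by -1.30 and the nuclear receptor NR4A2 rose by 1.21, with differences of -0.74 and 0.69 that did not pass. Of the aryl hydrocarbon receptor targets, the detoxifying enzyme CYP1A1 had -0.93 in A549 and fell in H1975 by -1.19, a difference of -0.26 with an interval from -0.81 to 0.30. NRF2 targets and cholesterol and fatty acid genes had 0 called differences, with medians of 0.15 and -0.08. Medians of the ERBB receptor and ligand, metallothionein, autophagy and snoRNA host lists lay between -0.06 and 0.11. These also had 0 called differences, near the 0.223% of all probes.

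Cell cycle genes were also set side by side. None of the 25 S phase or 33 G2/M genes was called in A549, in H1975 or in the difference. Over all probes, 0.279% were called higher and 0.18% lower in A549, 0.79% and 0.283% in H1975, and 0.223% in the difference. Lists of this size would hold few or no calls at these shares, so 0 calls is not a result about these genes. The medians were -0.21 and -0.18 for S phase and -0.15 and -0.16 for G2/M. BIRC5, which encodes Survivin, had a change of -0.17 in A549 and -0.34 in H1975, with an interval of the difference from -0.40 to 0.05. MKI67 had -0.24 and -0.26, and its interval of -0.21 to 0.16 leaves no room for a 2-fold difference. Of 18 genes taken from the readouts or the background of the work, none had a called difference, which is also near the share over all probes. The widest were CD274, which encodes PD-L1 and belongs to the background, at -0.25 in A549 and -0.87 in H1975 (difference -0.62, adjusted p = 0.0832), and SMAD2, at -0.23 and 0.37 (difference 0.60, adjusted p = 0.0978). TGFB1 had -0.05 in both lines. SMAD3 was lower with the drug in every run, at -0.35 in A549 and -0.49 in H1975. Averaged over the lines, SMAD3 (-0.42), BIRC5 (-0.26) and MKI67 (-0.25) fell by less than 2-fold (limma adjusted p = 0.00882, 0.0144 and 0.00918). Without the fold limit 5790 of 23299 probes passed this test of the mean, 2570 of them lower, so falls of this kind were common. BAMBI had a mean of 0.16 (limma adjusted p = 0.189).

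The 12 arrays at 24 h allow the same difference to be set beside that at 6 h in other RNA samples. Pairs were again taken by run day, but the 24 h arrays of H1975 on day 3 lay on different slides. Of the 52 probes, 50 were tested at 24 h, 42 had the same sign and none was called, where 6 of 23541 probes (0.0255%) were called in all. The share of all probes with the same sign at both times was not computed, so the count of signs is a description. Without the A549 pair of day 1, 45 of 50 had the same sign and again none was called. That pair was left out because its 24 h difference ran opposite to the other pairs, so the higher count is no separate support. The median difference at 24 h was 0.67 for the probes with a more positive change in H1975 at 6 h and -0.35 for those with a more negative one. FST had -2.08 at 24 h and -2.50 without that pair, CREG2 1.63 and 1.64, and CASC15, a non-coding transcript, 1.68 and 1.34. SCARA5 had 1.99 at 24 h but 0.89 without that pair. ZC3HAV1 and CYRIA lay at 0.06 and 0.14 at 24 h, near 0 beside their values at 6 h, and DGAT2 lay at 0.34 with that pair and at 1.1 without it. The sign was not kept at 8 of the 50 probes, among them SERPINB2, with 0.73, and SEC24D, with 0.23 (-0.72 without that pair).

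**Figure D5:**
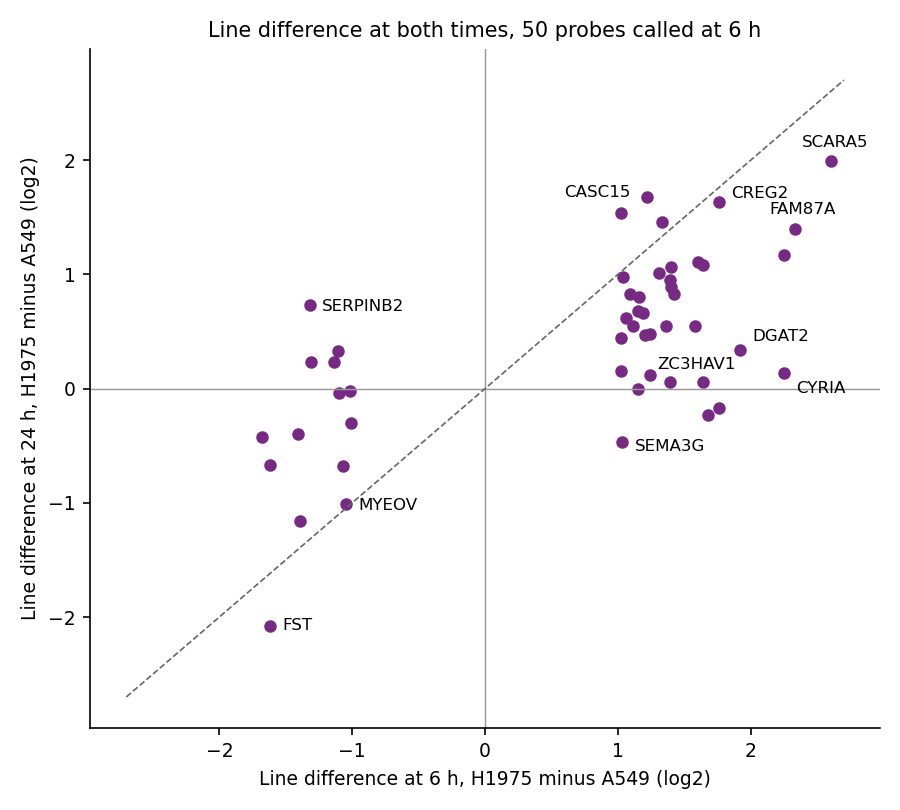
Line difference (H1975 minus A549, log2) at 6 h (x axis) and at 24 h (y axis, all 12 arrays) for the 50 probes called at 6 h and tested at 24 h; the dashed line marks equal values. FST, CREG2 and CASC15 lie near or beyond the dashed line, and ZC3HAV1 and CYRIA lie near 0 at 24 h.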

How the data were processed

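Whole-transcript levels of A549 and H1975 cells were measured on one-color Agilent 4x44K v2 arrays. The authors deposited the scanner output, with one processed signal intensity per spot (Agilent Feature Extraction 11.5.1.1 per the file headers), and a table of their own normalized log2 values, used here as an alternative. For each array, log2 of the processed intensity was taken, spots of one probe were averaged and the 75th percentile of the non-control spots was subtracted. Probes were tested where at least 1 of the 4 groups at 6 h had them well above background on each of its 3 arrays, which left 23299 of 34127 probes. Symbols came from the files, and 26377 probes were updated or checked through RefSeq transcripts.

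limma 3.58.1 in R 4.3.3 was fitted to the 12 arrays with a term for each pair of line and run day and a drug effect per line. A call needed a Benjamini-Hochberg adjusted p of at most 0.05 and a change of at least 2-fold. Intervals are 95%. The number of arrays limits the precision, and differences missing the threshold do not show equality. The run day in the deposited files pairs the arrays: deviations from the group means within a run day correlated at 0.72, 0.61 and 0.67 in A549 and 0.83, 0.51 and 0.70 in H1975, whereas by the replicate numbers of the labels H1975 gave -0.49, 0.46 and -0.68. The tests were checked on simulated data.

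The members, the gene lists and the tests were chosen with earlier results of these data known. Named were, for the line difference, the 12 called probes with a symbol and the largest difference in each direction, provided that the runs of the lines did not overlap; for the shared set, the 12 largest mean changes in each direction; in each of 22 lists the members with a called difference or else those with the widest differences; and 18 genes that the study measured or that its text discusses. Other genes were named after their values were seen. A gene with several probes is represented in lists by its brightest. A prior spread that follows intensity, alone and with normexp, was added after seeing the data. Probe positions are hg19 as in the files, and exon positions were not analysed here. Promoters are RefSeq GRCh38.p14.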

Additional observations from a re-analysis of the deposited data

Results flagged for a closer look

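Under limma's test of the difference between the lines, the drug response at 6 h differed at 29 of the probes named above, and each is given as H1975 minus A549 on the log2 scale. The difference was 2.60 for SCARA5, 2.33 for FAM87A, 2.25 for CYRIA, 1.83 for SH3GL3, 1.76 for CREG2 and 1.64 for FA2H, all genes whose change lay in H1975. It was 1.92 for DGAT2, 1.64 for ZC3HAV1 and -1.31 for SEC24D, whose change lay in A549, for ZC3HAV1 at its brighter probe only. Values of 1.76 and 1.68 for the C11orf86 probes, 1.58 for HOXA3 and -1.11 for LINC02591 came from changes of opposite sign. The list genes had 1.60 and 1.39 (SLC2A3), 1.40 (CXCL3), 1.15 (HSPA1B), 1.11 (ID2) and 1.09 (ANKRD37). The more negative changes in H1975 were -1.05 for MYEOV, -1.07 for ARID3B, -1.10 and -1.14 for the EDN1 probes, -1.32 for SERPINB2, -1.39 for ARB2BP, -1.41 for TNFRSF11B, -1.62 for FGF1, -1.62 for FST and -1.68 for FLG. The part of starting level, slide and run day in these differences was not tested beyond the values given above.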

How the results depend on the processing

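Counts are given in the order line difference, A549, H1975, both lines, mean of both lines, beside 52, 107, 250, 27 and 111. Normexp background correction gave 0 in each, and with a prior spread that follows intensity it gave 36, 44, 202, 13 and 42; that prior without normexp gave 101 line differences. Without the filter on dim probes there were 0 line differences, 27 calls in A549 and 5 in both lines. Probes well above background on all 12 arrays gave 64 in A549, 126 in H1975 and 53 for the mean. Holm adjustment gave 0, 4, 5, 1 and 9, and no fold-change limit 93, 1034, 4113, 566 and 5790. On the arrays of the run days that hold both lines there were 0, 2, 0 and 0 in the first 4. The methods' paired test gave 0 in A549 and 0 in H1975 after Benjamini-Hochberg adjustment. Of the pairing, no block gave 0, 39, 86 and 11 in the first 4, the replicate block by the numbers of the labels gave 0, 0, 7, 0 and 33, slide as a random block gave 145 line differences, and all 24 arrays without a block gave 6, 43, 109, 14 and 71. Leaving out 1 pair at a time gave 0 to 1, 9 to 152, 107 to 240, 2 to 34 and 86 to 148. Quantile normalization, the authors' values, mean values per gene and all 24 arrays with the run pair as a block kept each count within 1.5 times, with 45, 40 and 25 of the 52 probes called also with quantile, the authors' values and the 24 arrays. With normexp, with or without the intensity prior, the differences of LINC02591, ARB2BP, TNFRSF11B, FGF1 and FST turned to 0.05, 0.78, 0.72, 0.24 and 0.57, and the median change of all probes in H1975 moved to 0.27. The causes were not tested, except that a stricter limit leaves fewer calls by construction. Fewer samples did not always leave fewer calls. Without the A549 pair of day 2, A549 had 152 calls beside 107, and the lines shared 34 beside 27. Signal over background limits the dim probes.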

Other observations

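Other probes also had a called line difference, and those given here were chosen after their values were seen. GCNT3, an enzyme that branches mucin glycans, had a difference of 1.40 but was well above background on no H1975 array, so its change in H1975 is not measured. SPINK4, a secreted protease inhibitor of goblet cells, had 1.33 and lay well above background on all 12 arrays. The non-coding transcripts CASC15 and LINC00239, the kinesin-like KIF26A and the ESCRT component CHMP1B also had a more positive change in H1975, CASC15 by 1.22 and KIF26A by 1.24. Of the probes without a symbol, 1 on chromosome 17 was on no H1975 array with PBS and on all 3 with Pirfenidone well above background, at least 4.17-fold higher with the drug (limma adjusted p = 0.00368).

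In A549 the chemokine CCL2 fell by a log2 change of -1.41. ULK1, the kinase that starts autophagy, rose in H1975 by 1.18.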
